A study of Mus musculus with 18 samples.

Results

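Hepatocellular carcinomas of Tlr4-mutant mice were set against normal mouse liver on Affymetrix arrays. The comparison took 8 of the 18 arrays of the study, picked by their titles: 5 tumours from C3H/HeJ mice, here called mutant tumours 23 to 27 after their sample numbers, and 3 livers from untreated C3H/HeOuJ mice, here called normal livers 1 to 3. C3H/HeJ is a substrain that carries the germline Tlr4 change P712H, a proline replaced by histidine. Its mice were injected with the liver carcinogen DEN (diethylnitrosamine, 100 mg/kg) at 12 weeks of age and with the liver toxin CCl4 (carbon tetrachloride, 0.5 ml/kg) 6 times between weeks 13 and 23, and tumour nodules were dissected at 54 weeks. The normal livers came from 15-week-old mice of the sister substrain, wild type for Tlr4, which received neither agent. Where a result called for it, the mutant tumours were also set against 7 tumours of C3H/HeOuJ mice that had the same DEN and CCl4 course and age (WT tumours), and levels are given in 3 such tumours from mice that drank ampicillin, neomycin, metronidazole and vancomycin from week 10 on (antibiotic WT tumours). All mice were male. Substrain, Tlr4 genotype, age, DEN and CCl4 all differ between the mutant tumours and the normal livers, and no untreated C3H/HeJ liver was analysed here, so these factors cannot be told apart.

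TLR4 is the cell-surface receptor for lipopolysaccharide (LPS) of gut bacteria. It binds LPS with the co-receptors MD-2 (Ly96) and CD14 after the plasma protein LBP has delivered it, and signals through MyD88 to NF-kappaB. The C3H/HeJ change lies in the intracellular signalling domain and leaves mice poorly responsive to LPS. Liver cancers commonly turn on fetal genes such as Afp and lose genes of mature hepatocytes.

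Values are log2 signals as the authors deposited them, on the GCRMA scale, where 1 unit is a doubling. A signal of log2 4 was taken as the limit of detection, and 9053 genes that exceeded it on at least 3 of the 18 arrays were tested. The middle signal per array was alike in all groups (6.69 to 6.85 over the 18 arrays). Correlations between arrays were 0.946 to 0.983 within the mutant tumours, 0.990 to 0.993 within the normal livers and 0.891 to 0.947 between the groups. The technical controls were not alike. The gap in signal from the 3' to the 5' control probe set of Gapdh, a measure of how far labelled RNA reaches towards the 5' end, averaged 0.66 ± 0.24 in the mutant tumours (SD, n = 5) and 1.52 ± 0.13 in the normal livers (SD, n = 3), and that of beta-actin 2.25 ± 0.34 and 3.90 ± 0.31. For each pair the 2-sided exact permutation p was 0.0179, the smallest that the 56 splits of 5 and 3 arrays allow, and 0.0179 after adjustment over the 2 pairs. Without mutant tumour 26 the Gapdh difference of -0.88 had an exact permutation p of 0.0571. The signal of dap, a bacterial control transcript that kits add to RNA before labelling, averaged 1.99 ± 0.07 in the mutant tumours (SD, n = 5; 1.81 to 2.08 over all 15 tumours) and 8.02 ± 0.17 in the normal livers (SD, n = 3). The signal of bioB, a hybridisation control, averaged 3.30 ± 0.13 in the mutant tumours (2.90 to 3.41 over all 15 tumours) and 4.82 ± 0.07 in the normal livers. Whether the normal livers were labelled in another run is not given in the sources used here. The controls move with the tissue, so the part of RNA quality or labelling in the values below was not tested.

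At an adjusted p under 0.05, 2015 genes differed between the mutant tumours and the normal livers, 22.3% of those tested (limma, Benjamini-Hochberg). Of these, 1061 were higher in the mutant tumours (11.7%) and 954 lower (10.5%), and 566 rose (6.25%) and 359 fell (3.97%) by at least 2-fold. Counts in the gene lists below are to be read against the shares of 11.7% higher and 10.5% lower. The middle size of change among the genes that passed was 0.93 on the log2 scale with a middle SE of 0.23, against a middle spread over arrays (SD) of 0.27 in the mutant tumours and 0.15 in the normal livers. Over all genes tested the median change was 0.02. The 2 groups of arrays did not overlap for 3535 genes (39.0%), of which 1920 passed the test. The count of 2015 rests on all 3 normal livers: it was 1051 without normal liver 1, 1104 without normal liver 2 and 1169 without normal liver 3, and 1029, 1098 and 1154 of those genes were among the 2015. Of the genes that rose, 204 were below the detection limit in every normal liver, and of those that fell, 48 were below it in every mutant tumour. Such genes passed the filter through the group where they are high, and their folds are given as "at least", against the limit. Fewer cells of a type and less RNA per cell cannot be told apart in whole dissected tissue.

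**Figure D1:**
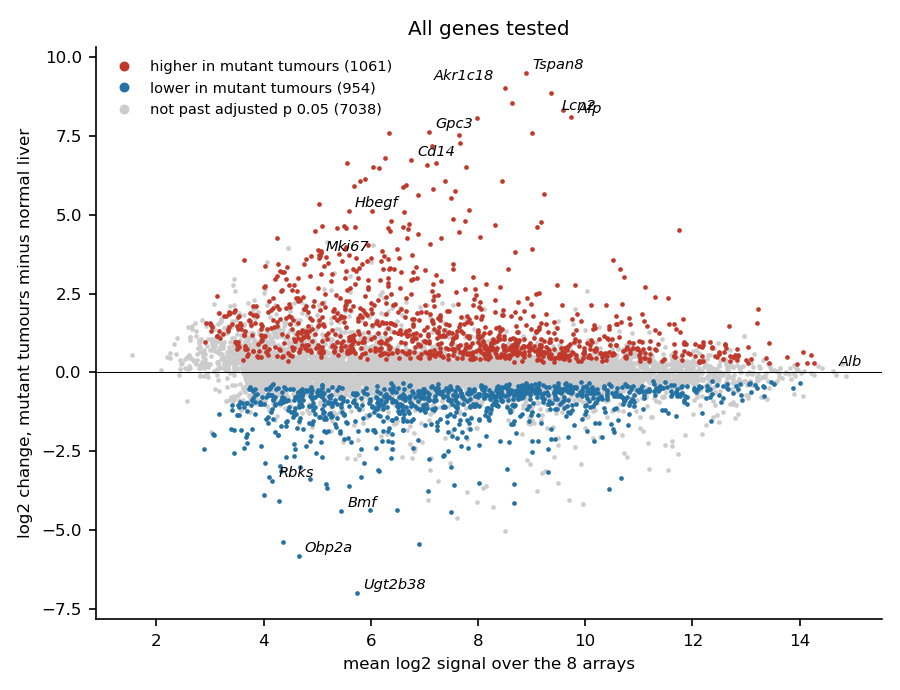
Log2 change (mutant tumours minus normal liver, vertical axis) against the mean log2 signal over the 8 arrays (horizontal axis) for the 9053 genes tested. Red points are the 1061 genes higher in mutant tumours and blue points the 954 lower at an adjusted p under 0.05. The changes above 5 in size are mostly rises, with Tspan8 and Akr1c18 at the top and Ugt2b38 at the bottom.

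The largest rises and falls were taken from genes that passed and whose groups of arrays did not overlap. With a group that was below the detection limit on every array set at that limit, the 10 largest rises were Tspan8, Lcn2, Akr1c18, Scd2, Tff3, Afp, Bex1, Slpi, Ly6d and Prom1. Afp, the fetal serum albumin homologue used as a blood marker of liver cancer, measured 11.93, 12.91, 13.59, 13.02 and 12.43 in mutant tumours 23 to 27, against 5.38, 4.32 and 4.36 in normal livers 1 to 3. Every mutant tumour was thus far above every normal liver, and the tumours among themselves spanned less than the gap. The change was 8.09 ± 0.99 (SE) on the log2 scale, or 272-fold (limma adjusted p = 5.12e-05). The 3 Afp probe sets that were kept gave changes of 6.77 to 8.61.

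Tspan8, a membrane tetraspanin of epithelial tumours, measured 12.62, 12.88, 12.65, 12.14 and 11.99 in the mutant tumours and 2.57, 3.38 and 2.94 in the normal livers. It was detected in every mutant tumour and in no normal liver, at least 351-fold higher (limma adjusted p = 1.53e-06); its 5 kept probe sets gave changes of 2.39 to 9.50. Lcn2, the siderophore-binding lipocalin made in inflamed epithelium and by neutrophils, measured 13.47, 12.59, 11.59, 12.45 and 13.30 in the mutant tumours and 3.64, 3.76 and 4.05 in the normal livers. The lowest mutant tumour, tumour 25, was still over 7 log2 units above the highest normal liver, and the change was 8.87 ± 0.73 (limma adjusted p = 9.19e-07), with 1 of 3 normal livers above the limit. Tff3, a mucosal trefoil peptide, rose by 8.31 ± 1.16 and Slpi, a secreted inhibitor of neutrophil proteases, by 7.59 ± 0.49 (limma adjusted p = 0.000183 and 4.14e-08); 2 of 3 normal livers had Tff3 above the limit.

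Scd2 and Akr1c18 are enzymes of lipid and steroid metabolism. Scd2, a fatty acid desaturase, measured 11.35, 12.20, 12.15, 12.17 and 11.33 in the mutant tumours and 3.33, 3.14 and 3.42 in the normal livers, at least 229-fold higher (limma adjusted p = 4.63e-09). Akr1c18, the progesterone-inactivating 20-alpha-hydroxysteroid dehydrogenase, averaged 11.88 ± 0.33 in the mutant tumours and 2.86 ± 0.34 in the normal livers (SD, n = 5 and 3), at least 236-fold higher (limma adjusted p = 0.000152). Both groups were tight and far apart for these enzymes. Each has close paralogs whose transcripts a probe set may also read, and of the 3 Scd2 probe sets the lowest gave a change of 1.18.

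Gpc3, a heparan sulphate proteoglycan of fetal liver and of human liver cancer, measured 7.82, 10.60, 10.64, 11.08 and 9.58 in the mutant tumours and 2.11, 2.78 and 2.09 in the normal livers. Mutant tumour 23 was the lowest of the tumours, and the rise of Gpc3 was at least 61.5-fold (limma adjusted p = 0.000152). Prom1, a progenitor cell surface protein, and Bex1, an adaptor of developing neurons, were at least 84.3-fold and 129-fold higher (limma adjusted p = 2.34e-05 and 0.000138). Ly6d, a lymphoid and epithelial surface protein, was at least 88.7-fold higher, with mutant tumours 23 and 26 at 11.37 and 12.17 and the other mutant tumours between 9.06 and 9.91 (limma adjusted p = 0.00215).

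Of 28 oncofetal and tumour markers on the array, 25 were tested, 14 rose and none fell. The median change of the 25 was 5.94, or 4.89 with genes below the detection limit set to it, against 0.02 over all genes tested. The mean level of the 25 was 7.72 to 8.58 in the mutant tumours and, below the detection limit, 3.52 to 3.55 in the normal livers. Members undetected in normal liver passed the filter through the tumours, so the lack of falls and the size of the median follow in part from the filter. Among the other risers were Igdcc4, a surface receptor of fetal liver, at least 57.1-fold higher (limma adjusted p = 9.75e-09), and, chosen after their values were seen, Golm1, a Golgi protein, at least 29.7-fold higher, and Spink1, a trypsin inhibitor, at least 45.8-fold higher. Spink1 varied among the mutant tumours, with 11.29 in tumour 25 and 7.06 in tumour 26; without tumour 26 its change was 7.18 in place of 6.57. Igf2, the fetal growth factor, chosen after its values were seen, did not follow: it was below the detection limit in every mutant tumour (2.48 to 3.05) and every normal liver (2.41 to 2.52).

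**Figure D2:**
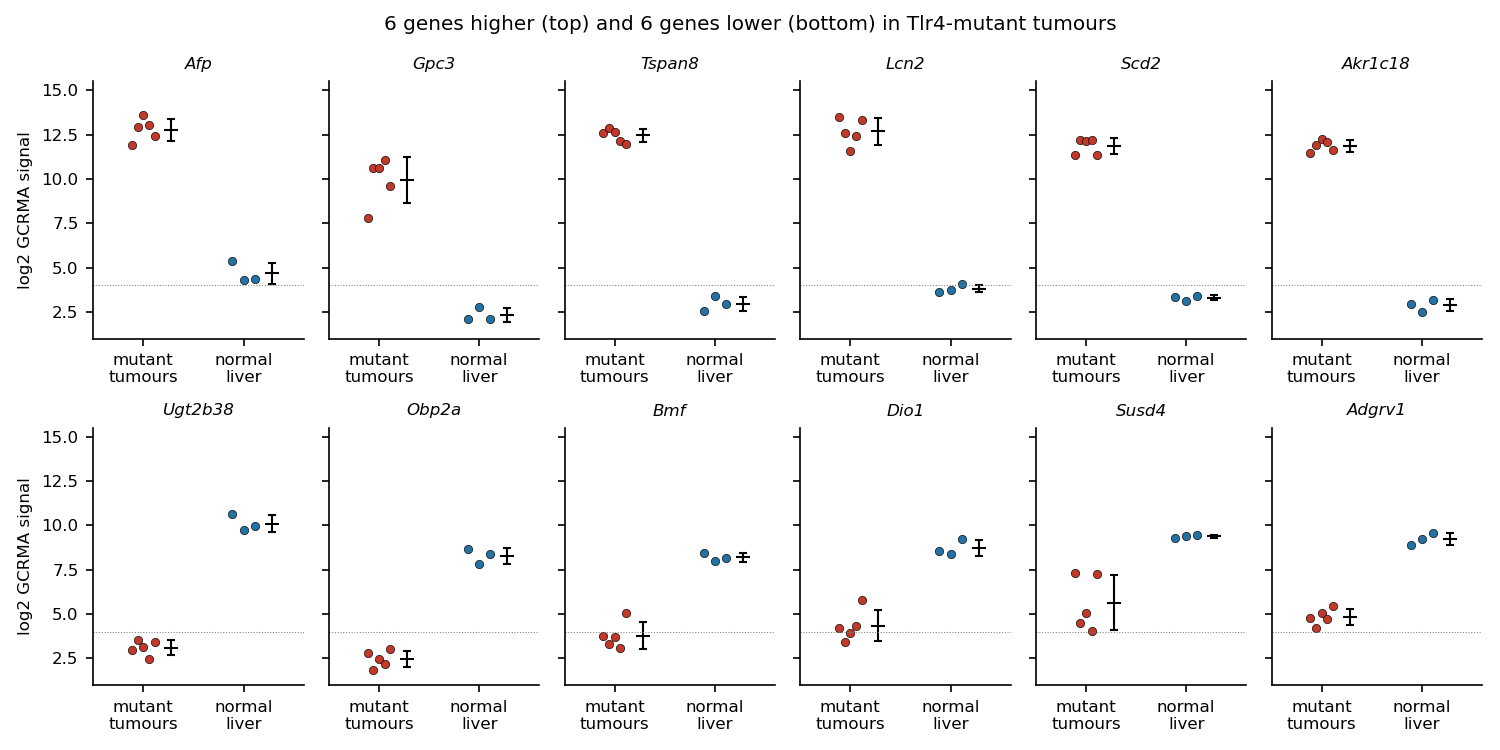
Log2 GCRMA signal (vertical axis) of 12 genes in the 5 mutant tumours (left, red) and the 3 normal livers (right, blue). Each point is 1 array, bars show the mean and SD, and the dotted line is the detection limit of log2 4. In the top row, which adds Gpc3 to 5 of the largest rises, every tumour lies above every normal liver, and in the bottom row every tumour lies below. All but Gpc3 were picked from genes whose groups do not overlap (39.0% of all genes tested), so this separation follows from the choice.

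Within the LPS receptor complex Cd14 rose in the mutant tumours, Ly96 and Lbp did not pass and Tlr4 could not be tested. Tlr4 lay below the detection limit on all 18 arrays, with 3.22, 2.59, 2.52, 2.72 and 2.63 in the mutant tumours and 1.99, 2.82 and 2.73 in the normal livers, so its level was not compared. A single-residue change is also not something a 3' probe set shows, and these arrays do not check the genotype. Cd14, the LPS co-receptor of myeloid cells that hepatocytes can also make, measured 9.52, 10.22, 8.52, 8.99 and 9.13 in the mutant tumours and 2.51, 2.36 and 2.73 in the normal livers. It was detected in every mutant tumour and in no normal liver, at least 38.7-fold higher (limma adjusted p = 1.78e-05). The MD-2 gene Ly96 had a change of 0.56 ± 0.40 (limma adjusted p = 0.325). The LPS carrier gene Lbp measured 10.93, 8.91, 8.53, 7.69 and 10.11 in the mutant tumours and 8.13, 8.13 and 8.32 in the normal livers, so that tumours 23 and 27 were high and tumour 26 was below the normal livers (limma adjusted p = 0.32).

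Of 18 tested genes of LPS and Toll-like receptor signalling, 4 rose and 1 fell, with a median change of 0.37 (0.14 with undetected genes at the limit). Tlr1, the TLR2 partner for bacterial lipopeptides, measured 5.52, 7.49, 9.28, 9.77 and 8.23 in the mutant tumours, against 1.42, 1.58 and 1.21 in the normal livers. Tlr1 was at least 16.7-fold higher (limma adjusted p = 0.000608). Its change of 6.65 became 7.29 when tumour 23, the lowest, was left out. Tlr6, the other TLR2 partner, chosen after its values were seen, passed with both groups mostly below the detection limit, and not without normal liver 1 or 3 (limma adjusted p up to 0.0973). Irak2, a kinase downstream of MyD88, rose by 1.11 ± 0.23 (limma adjusted p = 0.00415), with 2 of 3 normal livers above the limit. Ikbkg, the NEMO subunit of the IkappaB kinase, fell by 1.49 on the log2 scale, to 6.59 to 8.18 in the mutant tumours, against 8.87 to 9.12 in the normal livers (limma adjusted p = 0.00602), and its 4 kept probe sets gave changes of -1.49 to -0.42.

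Of 20 NF-kappaB targets on the array 13 were tested, of which 6 rose and 1 fell, with a median change of 1.29 (0.78 with undetected genes at the limit). Relb, Nfkb2, Cxcl2, Ccl2, Il1b, Il6 and Tnf did not pass the filter and were below the detection limit in every mutant tumour and normal liver. The chemokine Cxcl1, which draws neutrophils, measured 12.22, 11.16, 10.54, 11.14 and 11.18 in the mutant tumours and 9.34, 9.33 and 9.73 in the normal livers. All mutant tumours were above the normal livers, tumour 23 by the most, and the rise was 3.44-fold (limma adjusted p = 0.00345). Icam1, an adhesion molecule for leukocytes, rose 4.46-fold, and Nfkbiz, a nuclear IkappaB family member, 2.94-fold (limma adjusted p = 0.00457 and 0.00231); the 3 kept Nfkbiz probe sets ranged from 0.30 to 1.55. Sod2, the mitochondrial superoxide dismutase, fell 1.82-fold (limma adjusted p = 0.0042, but 0.0561 when probe sets open to cross-hybridisation were left out). The other 3 risers, Nfkbie, Tnfaip2 and Tnfaip3, chosen after their values were seen, lost the call without normal liver 1, 2 or 3 or without mutant tumour 23 or 24, which leaves 3 risers (limma adjusted p between 0.0504 and 0.142).

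NF-kappaB dimers bind sites of the form GGGNNNNNCC, and the promoter window of Cxcl1 is shown because it holds such sites close to the start. It spans 250 bases before to 50 after the annotated start, chr5:90890995-90891294 on the + strand (RefSeq, GRCm38.p6), printed 5′ to 3′, with capitals marking the runs that match GGGNNNNNCC on either strand, overlapping matches being joined.
Cxcl1: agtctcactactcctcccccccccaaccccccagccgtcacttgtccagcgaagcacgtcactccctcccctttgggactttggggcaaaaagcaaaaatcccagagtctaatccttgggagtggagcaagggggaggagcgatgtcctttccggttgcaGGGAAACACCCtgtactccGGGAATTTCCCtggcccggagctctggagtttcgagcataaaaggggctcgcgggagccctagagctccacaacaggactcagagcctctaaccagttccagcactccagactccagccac
Of the 2 runs marked, the first base lies at -90 and -71 from the start. All 5 NF-kappaB targets that rose and had a window held at least 1 match, but so did 53.5% of the 27025 genes with a window, so the match is a description of these letters and no more.

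Among growth factor genes, Hbegf and Igfbp1 stood out. Hbegf, a ligand of the EGF receptor, measured 7.52, 7.48, 7.23, 7.64 and 7.65 in the mutant tumours and 1.84, 2.33 and 3.0 in the normal livers. The mutant tumours lay within 0.5 of each other, and Hbegf was at least 11.3-fold higher there (limma adjusted p = 9.98e-06). The insulin-like growth factor binding protein gene Igfbp1 averaged 13.44 ± 0.29 in the mutant tumours and 8.91 ± 0.85 in the normal livers (SD, n = 5 and 3), a 23.1-fold rise (limma adjusted p = 1.83e-06). Lrig1, which restrains EGF receptors, rose 2.52-fold (limma adjusted p = 0.00149). The hepatocyte growth factor gene Hgf was at least 1.96-fold lower in the mutant tumours, where it was below the detection limit (limma adjusted p = 0.0115, but 0.0613 without normal liver 3). In all, 3 of 18 tested EGF receptor ligands and growth factors rose and 1, Hgf, fell, a count of 0 without normal liver 3. Over all genes tested 11.7% rose and 10.5% fell, so in so short a list these counts are near the background. The median change was 0.10, against 0.02 over all genes. Ereg, another EGF receptor ligand, was below the detection limit on all 18 arrays.

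Of 27 tested cell cycle genes, 12 rose and 1 fell, with a median change of 1.55 (0.54 with undetected genes at the limit); without normal liver 3, 7 rose. The proliferation marker Mki67 measured 4.37, 6.57, 7.84, 6.97 and 6.42 in the mutant tumours and 2.67, 2.74 and 2.75 in the normal livers. Mutant tumour 23 was only just detected, and Mki67 was at least 5.40-fold higher in the mutant tumours (limma adjusted p = 0.00266). Ccnd1, the G1 cyclin, measured 8.69, 9.25, 10.73, 11.23 and 10.48 in the mutant tumours, against 7.79, 7.88 and 6.99 in the normal livers, a 5.73-fold rise (limma adjusted p = 0.0013). Rrm2, the ribonucleotide reductase subunit made in S phase, rose 6.44-fold (limma adjusted p = 0.00242), with changes of 1.21 to 2.69 over its 3 kept probe sets. Ccne2, a G1/S cyclin, was lower (at least 1.35-fold, limma adjusted p = 0.0307), a call that ended without normal liver 1, 2 or 3 or mutant tumour 23 or 27 (up to 0.121).

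Many genes of the G2 and M phases carry in their promoters CCAAT boxes and a TTTGAA element named CHR (cell cycle genes homology region). The windows of 3 risers are shown because they hold both: Mki67, and, chosen after their values were seen, Cdk1, the mitotic kinase, and Ccnb2, a cyclin that partners it. Cdk1 rose by 1.80 (limma adjusted p = 0.0126, but 0.0541 without normal liver 3) and Ccnb2 by 2.35 (limma adjusted p = 0.0281, but 0.066 to 0.0942 without normal liver 1, 2 or 3 or mutant tumour 25 or 26). The windows lie at chr10:69352863-69353162, chr9:70421505-70421804 and chr7:135716330-135716629, all on the - strand (RefSeq, GRCm38.p6, 250 bases before to 50 after the start), printed 5′ to 3′. Capitals mark CCAAT and TTTGAA on either strand (ATTGG and TTCAAA where read on the other); no marked run overlaps another.
Cdk1: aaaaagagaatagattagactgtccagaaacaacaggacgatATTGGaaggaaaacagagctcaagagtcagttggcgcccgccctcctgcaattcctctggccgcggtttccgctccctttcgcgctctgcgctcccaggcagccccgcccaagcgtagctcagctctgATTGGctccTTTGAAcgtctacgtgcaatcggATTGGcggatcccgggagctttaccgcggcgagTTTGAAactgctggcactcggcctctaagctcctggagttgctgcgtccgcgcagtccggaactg
Ccnb2: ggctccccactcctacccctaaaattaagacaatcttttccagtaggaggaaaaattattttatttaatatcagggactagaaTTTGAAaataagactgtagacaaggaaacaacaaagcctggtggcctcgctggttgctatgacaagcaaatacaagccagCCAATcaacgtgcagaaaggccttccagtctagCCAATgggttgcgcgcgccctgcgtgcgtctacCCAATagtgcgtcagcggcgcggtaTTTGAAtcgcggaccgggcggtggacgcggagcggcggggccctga
Mki67: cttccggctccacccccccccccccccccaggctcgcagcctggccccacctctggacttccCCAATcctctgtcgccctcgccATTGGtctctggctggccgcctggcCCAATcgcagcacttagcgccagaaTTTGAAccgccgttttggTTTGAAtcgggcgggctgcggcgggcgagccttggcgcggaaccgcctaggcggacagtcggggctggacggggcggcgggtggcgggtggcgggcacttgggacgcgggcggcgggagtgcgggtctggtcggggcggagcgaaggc
Of the 12 cell cycle genes that rose, 9 had a window. All 9 held CCAAT, as did 41.1% of the 27025 genes with a window, and 6 held TTTGAA, as did 20.2%. Both were in 6 of the 9, and in 7.97% of all. Of the 14 tested members that did not pass, 12 had a window, 9 with CCAAT and 2 with TTTGAA. These are counts of letters in a window and show no binding.

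Of 19 tested p53 targets and apoptosis genes, 6 rose and none fell (3 rose without normal liver 1 or 2), with a median change of 0.61 (0.44 with undetected genes at the limit). Cdkn2b, the p15 inhibitor of CDK4 and CDK6, measured 7.78, 8.85, 8.80, 9.34 and 6.23 in the mutant tumours and 2.07, 2.08 and 2.03 in the normal livers, at least 18.4-fold higher (limma adjusted p = 0.000104). Cdkn1a, the p21 inhibitor, was at least 5.39-fold higher (limma adjusted p = 0.00333), and Btg2, an antiproliferative p53 target, rose 15.2-fold (limma adjusted p = 7.83e-05). The 2 kept Cdkn1a probe sets gave changes of 1.55 and 3.69. Mutant tumour 27 had the lowest Cdkn2b and Cdkn1a and the highest Btg2 of the mutant tumours.

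Feedback genes of the ERK pathway also rose, while Myc did not. Of 13 tested ERK output genes, 5 rose and 2 fell, with a median change of 0.80 (0.67 with undetected genes at the limit). Dusp6, the phosphatase that inactivates ERK, measured 10.23, 11.36, 11.62, 11.72 and 11.06 in the mutant tumours and 8.86, 9.27 and 9.04 in the normal livers, a 4.43-fold rise (limma adjusted p = 0.00243). Its relative Dusp5 was 6.19 to 7.77 in the mutant tumours and 3.22, 3.84 and 4.10 in the normal livers, of which 1 of 3 was above the limit (limma adjusted p = 0.00127). The ETS factor Etv5 rose 3.67-fold (limma adjusted p = 0.00218). In each of the 3 genes every mutant tumour was above every normal liver. Myc, the growth transcription factor, fell by 2.72 on the log2 scale, to 4.88 to 6.35 in the mutant tumours, against 7.27 to 8.91 in the normal livers (limma adjusted p = 0.0241), and Phlda1 by 1.29 (0.0257). Of these 2 falls, 1 was left without normal liver 1 and none without normal liver 2 or 3 or mutant tumour 25 or 26 (limma adjusted p up to 0.113 for Myc and 0.0946 for Phlda1).

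Of 19 tested immediate early and heat shock genes, 7 rose and none fell, with a median change of 1.01 (0.75 with undetected genes at the limit). Egr1, a serum-induced zinc finger factor, measured 10.53, 12.12, 12.79, 12.32 and 11.55 in the mutant tumours and 8.47, 9.24 and 7.17 in the normal livers, an 11.8-fold rise (limma adjusted p = 0.000179). Klf6 rose 7.77-fold and Ier2 2.42-fold (limma adjusted p = 0.00183 and 0.00106); the 5 kept Klf6 probe sets gave changes of 1.44 to 2.96. Fos, the AP-1 subunit, chosen after its values were seen, rose by 3.72 on the log2 scale (limma adjusted p = 0.00767), with 2 of 3 normal livers above the limit. Without mutant tumour 27, 1 member fell.

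The serine synthesis branch of the integrated stress response was higher in the mutant tumours. Of 22 tested genes of the integrated and endoplasmic reticulum stress responses, 6 rose and 1 fell, with a median change of 0.21; without mutant tumour 23, 3 fell. Phgdh, the first enzyme of serine synthesis, measured 8.19, 8.93, 8.25, 9.43 and 5.63 in the mutant tumours and 1.63, 2.09 and 2.31 in the normal livers, at least 17.0-fold higher (limma adjusted p = 0.000187); its 3 kept probe sets gave changes of 0.996 to 6.08. Psat1, the next enzyme, was at least 5.65-fold higher and Psph, the last, rose 4.89-fold (limma adjusted p = 0.00528 and 0.00501). Mutant tumour 27 was the lowest of the tumours for Phgdh, Psat1 and Psph; without it the Phgdh change was 6.69 in place of 6.08. Shmt2, which turns serine into glycine in mitochondria, fell 2.91-fold (limma adjusted p = 0.00331).

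Counted the same way, the 10 largest falls, in which a group with at least 1 array above the limit (Gna14, Bmf, Dio1, Slc22a7 and 9130409I23Rik) counts at its measured mean, were Ugt2b38, 9130409I23Rik, Slc22a7, Bmf, Dio1, Adgrv1, Obp2a, Fam25c, Gna14 and Susd4. Ugt2b38, a glucuronosyltransferase of male liver, measured 2.95, 3.54, 3.14, 2.48 and 3.43 in the mutant tumours and 10.63, 9.76 and 9.95 in the normal livers, at least 69.2-fold lower (limma adjusted p = 0.00137). It was not detected in any mutant tumour, and neither was Obp2a, a lipocalin that binds odorants. The fall of Obp2a was at least 19.6-fold (limma adjusted p = 8.31e-09). Ugt2b genes are near-identical, so a probe set may read more than 1 of them. Bmf, a pro-apoptotic BH3-only protein, measured 3.75, 3.33, 3.70, 3.11 and 5.07 in the mutant tumours and 8.47, 7.99 and 8.15 in the normal livers (limma adjusted p = 8.8e-05). It was detected in 1 of 5 mutant tumours. Dio1, the deiodinase that activates thyroid hormone, was detected in 3 of 5 mutant tumours (3.45 to 5.82) and measured 8.39 to 9.21 in the normal livers (limma adjusted p = 0.000265). Adgrv1, an adhesion G protein-coupled receptor, fell 20.5-fold (limma adjusted p = 0.00643).

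Slc22a7, an organic anion transporter, measured 8.52, 3.90, 5.58, 3.43 and 7.72 in the mutant tumours and 10.49, 10.04 and 10.29 in the normal livers, so that tumours 23 and 27 kept much more of it than tumours 24 and 26. Its call (limma adjusted p = 0.0446) ended without normal liver 1, 2 or 3 or mutant tumour 24, 25 or 26 (0.0767 to 0.121), and its change of -4.45 was -5.12 without tumour 23 and -3.85 without tumour 26. Fam25c had the same order of tumours; its call (limma adjusted p = 0.0175) ended without normal liver 1, 2 or 3 (0.0507 to 0.0673), and its change of -4.15 was -4.83 without tumour 23 and -3.47 without tumour 26. Gna14, a G protein alpha subunit, was detected in 1 of 5 mutant tumours, at 4.37, and measured 1.82 to 2.76 in the others, against 6.51 to 7.10 in the normal livers (limma adjusted p = 0.00301). 9130409I23Rik, an uncharacterised gene, was detected in 4 of 5 mutant tumours and fell by 5.44 on the log2 scale (limma adjusted p = 0.000496). Susd4, a complement regulator, measured 7.35, 4.51, 5.07, 4.04 and 7.29 in the mutant tumours and 9.31, 9.41 and 9.49 in the normal livers, a 13.5-fold fall (limma adjusted p = 0.0081). Again tumours 23 and 27 were nearest to normal liver.

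Male liver has a set of genes kept high by pulsed growth hormone. Of 22 tested male-biased genes, 9 fell and none rose, with a median change of -2.34; without normal liver 1, 4 fell, and without antibiotic WT tumour 30, 1 rose. The mean level of the 22 genes was 9.43, 7.84, 8.50, 6.59 and 9.35 in mutant tumours 23 to 27 and 11.23, 11.05 and 11.09 in the normal livers. Obp2a, Ugt2b38 and Susd4 were the members with the smallest p. Of 14 tested female-biased genes, 3 rose and 1 fell, with a median change of 0.73 (0.35 with undetected genes at the limit); 5 rose without mutant tumour 23 or antibiotic WT tumour 28 or 30. Abcd2, a peroxisomal transporter, measured 8.36, 9.75, 10.27, 10.68 and 9.50 in the mutant tumours and 2.09, 3.30 and 3.86 in the normal livers, at least 52.3-fold higher (limma adjusted p = 6.03e-07). Cyp2b9, a female-biased cytochrome P450 with near-identical relatives, was at least 36.3-fold higher (limma adjusted p = 0.000375). The remaining calls, Tox higher and Ntrk2 lower (limma adjusted p = 0.0407 and 0.0491), were near or below the detection limit in the mutant tumours and each ended on leaving out normal liver 1 or 2 or mutant tumour 24, 25, 26 or 27 (up to 0.155 and 0.165), and Ntrk2 also without 8 other arrays.

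Enzymes of drug and steroid metabolism fell in part. Of 40 tested cytochrome P450 and flavin monooxygenase genes, 10 fell and 2 rose, with a median change of -0.76. The count of 10 was 2 without normal liver 1, 4 without normal liver 2 or 3, and 6 without mutant tumour 24, 25 or 26; the 2 risers were 1 without any 1 of the normal livers or mutant tumour 25 or 26 and 4 without mutant tumour 27 or antibiotic WT tumour 30. Cyp2g1 was detected in 1 of 5 mutant tumours and fell, with 3.21 to 4.28 in the mutant tumours and 5.48 to 6.62 in the normal livers (limma adjusted p = 0.00193). Cyp2u1, a fatty acid hydroxylase, fell 2.81-fold (limma adjusted p = 0.00855). Cyp2e1, a pericentral P450 that activates CCl4, had a change of -0.85 (limma adjusted p = 0.264), with 13.68 and 13.91 in mutant tumours 23 and 27, 12.23 to 13.27 in the others and 13.86 to 13.98 in the normal livers. It was chosen after its values were seen.

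Of 46 tested conjugation and ester hydrolysis genes, 16 fell and 3 rose, with a median change of -0.65. The count of 16 was 5, 6 and 7 without normal liver 1, 2 and 3, 10 without mutant tumour 24 and 9 without mutant tumour 25 or 26; the 3 risers were 0 without normal liver 1 or 2 and 1 without normal liver 3 or mutant tumour 26. Sult5a1, a sulphotransferase, was below the detection limit in every mutant tumour (2.00 to 3.03) and measured 7.28, 4.91 and 7.10 in the normal livers, at least 5.39-fold lower (limma adjusted p = 0.00013). Normal liver 2 was the lowest of the normal livers, and without it the change was -4.64 in place of -3.88. Ugt2b5, a glucuronosyltransferase, fell 1.85-fold with no overlap (12.45 to 12.77 in the mutant tumours, 13.40 to 13.54 in the normal livers; limma adjusted p = 0.000865).

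Of 32 tested genes of bile acid synthesis and transport, 2 rose and 4 fell, shares of calls near those of all genes, with a median change of -0.63. The count of falls was 1 without normal liver 1, 2 or 3 or mutant tumour 26, and 2 without mutant tumour 24 or 25. In 16 of the 32, though, every mutant tumour was below every normal liver and in 3 above, against 18.9% and 20.2% of all genes tested. Cyp7a1, which makes the first and limiting step from cholesterol to bile acids, measured 9.12, 5.96, 9.0, 6.15 and 10.15 in the mutant tumours and 11.14, 11.09 and 11.34 in the normal livers. Every mutant tumour was below every normal liver, but the tumours differed so much that the change of -3.12 ± 1.36 did not pass (limma adjusted p = 0.108). Cyp39a1, an oxysterol 7-alpha-hydroxylase, measured 9.68, 10.50, 10.40, 10.50 and 9.51 in the mutant tumours and 7.04, 4.56 and 7.30 in the normal livers, a 14.1-fold rise (limma adjusted p = 0.000596); without normal liver 2, the lowest, the change was 2.95 in place of 3.82. Abcb1a, a multidrug efflux pump, rose 7.94-fold (limma adjusted p = 0.00892).

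Hepatocyte genes for plasma proteins stayed at high levels in the mutant tumours. Alb, the serum albumin gene that marks hepatocytes, measured 14.59 to 14.71 in the mutant tumours and 14.49 to 14.63 in the normal livers (change 0.06, limma adjusted p = 0.649). Of 43 tested hepatocyte secreted proteins, 10 rose and 1 fell, with a median change of 0.09; 6 rose without normal liver 1, 2 or 3. The 1 that fell, the complement gene C6 (limma adjusted p = 0.0386), lost the call without normal liver 1, 2 or 3 or mutant tumour 24, 25 or 26 (up to 0.109), while 3 members fell without mutant tumour 23 or WT tumour 19 and 2 without mutant tumour 27 or WT tumour 17. Serpinf2, the plasmin inhibitor, rose 1.77-fold, Ahsg, the fetuin-A gene, 1.56-fold, and the complement factor gene Cfb 1.86-fold (limma adjusted p = 0.000264, 0.000557 and 0.000669). For all 3 the mutant tumours lay within 0.4 of each other and above every normal liver. Of 19 tested hepatocyte transcription factors, 1 rose and 4 fell, with a median change of -0.50. Foxa3, a forkhead factor of liver, rose 1.85-fold (limma adjusted p = 0.00602). The 4 falls became 0 without normal liver 1, 2 or 3 or mutant tumour 24, and 2 without mutant tumour 25 or 26 or antibiotic WT tumour 28. Hnf4a, the central factor of hepatocyte identity, chosen after its values were seen, measured 11.26 to 11.53 in the mutant tumours and 11.33 to 11.40 in the normal livers (limma adjusted p = 0.658).

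Of 25 tested acute phase genes, 7 rose and none fell, with a median change of 0.58; 1 fell without WT tumour 19 or 21. Cp, the copper ferroxidase ceruloplasmin, rose by 0.95 ± 0.14 and Steap4, a metalloreductase, by 1.07 ± 0.26 (limma adjusted p = 0.000245 and 0.00947); the 7 Cp probe sets that were kept ranged from 0.18 to 3.19. Saa1, a classical acute phase product chosen after its values were seen, measured 14.38, 9.90, 8.89, 9.43 and 12.99 in the mutant tumours, against 11.12, 11.43 and 10.85 in the normal livers, so that tumours 23 and 27 lay above and the other 3 below normal liver.

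Few genes of ammonia and amino acid handling passed the test, though many lay lower in the mutant tumours. None of 17 tested urea cycle and periportal enzymes rose and 1, Slc25a15, fell. Their median change was -0.38. In 7 of the 17 every mutant tumour was below every normal liver and in 2 above, against 18.9% and 20.2% of all genes tested. Slc25a15, the ornithine carrier, fell by 0.76 (limma adjusted p = 0.0351), and the call ended without normal liver 1, 2 or 3 or mutant tumour 24, 25 or 26 (0.0571 to 0.109). The count became 2 without mutant tumour 23 or WT tumour 21 or 22, and 3 without mutant tumour 27. Of 35 tested genes of amino acid catabolism, 4 fell and none rose, with a median change of -0.65, where 10.5% of all genes tested fell. Those 4 became 0 without normal liver 1, 2 or 3, 2 without mutant tumour 24, and 1 without mutant tumour 25 or 26. In 16 of the 35 every mutant tumour was below every normal liver, and in none above. Of 15 tested Wnt targets and pericentral genes, Ccnd1 alone passed; the count was 2 without mutant tumour 27, WT tumour 17, 19 or 21 or antibiotic WT tumour 30. The median change was -0.95 (-0.91 with undetected genes at the limit). In 9 of the 15 every mutant tumour was below every normal liver and in 2 above.

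Of 30 tested genes of fatty acid synthesis and lipid storage, 9 rose and 1 fell, with a median change of 0.10 (0.06 with undetected genes at the limit); 3 rose without normal liver 1 and 5 without normal liver 3, and 2 fell without mutant tumour 23. Cd36, a fatty acid importer, measured 8.73, 10.01, 8.42, 8.17 and 9.26 in the mutant tumours and 3.09, 5.55 and 5.30 in the normal livers (limma adjusted p = 0.00168), where 2 of 3 were above the limit, and its 3 kept probe sets gave changes of 1.43 to 4.27; without normal liver 1, the lowest, the change was 3.49 in place of 4.27. Cidea, a lipid droplet protein, was at least 3.59-fold higher, with mutant tumours 25 and 26 at 7.32 and 7.22 and the others between 4.45 and 5.28 (limma adjusted p = 0.00236). Me1, the malic enzyme that supplies NADPH, fell 8.87-fold, to 9.45, 8.58, 7.82, 6.44 and 8.37 in the mutant tumours, against 11.06, 11.32 and 11.46 in the normal livers (limma adjusted p = 0.00215). Fasn, the fatty acid synthase, chosen after its values were seen, had a change of 0.08 (limma adjusted p = 0.924).

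Of 20 tested cholesterol synthesis genes, 4 rose and none fell, with a median change of 0.53; without normal liver 1, 2 rose. Srebf2, the transcription factor of the pathway, rose 2.87-fold and Sqle, the squalene epoxidase, 2.21-fold (limma adjusted p = 0.00144 and 0.00231); the other Srebf2 probe set gave 0.13. Of 18 tested PPARalpha targets, 1 rose and 1 fell, with a median change of -0.17. Vnn1, a pantetheinase, measured 9.25, 9.79, 9.51, 10.37 and 9.41 in the mutant tumours and 3.68, 3.18 and 3.94 in the normal livers, at least 50.9-fold higher (limma adjusted p = 0.00174). Acot1, an acyl-CoA thioesterase, fell by 1.87 (limma adjusted p = 0.0485), and the call ended on leaving out any 1 of 12 arrays, among them every normal liver and mutant tumours 23 to 26 (up to 0.171).

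Other metabolic and stress groups were close to the share of all genes. Of 24 tested genes of glycolysis and gluconeogenesis, 2 rose and 3 fell, with a median change of 0.04 (-0.04 with undetected genes at the limit), and none of the 5 calls held without normal liver 1, 2 or 3; the 2 risers were 1 without mutant tumour 25 or 26. Of 22 tested NRF2 targets, 1 rose and 3 fell (1 without normal liver 1, 2 or 3), with a median change of -0.15 (-0.25 with undetected genes at the limit). Osgin1, an oxidative stress growth inhibitor, rose 2.60-fold (limma adjusted p = 0.00497). Of 18 tested hypoxia-induced genes, 1 rose and 1 fell, neither without normal liver 1, 2 or 3, with a median change of -0.03; single-array omissions moved these counts to between 0 and 2. Of 17 tested iron genes, 2 rose and 2 fell, with a median change of -0.36; the falls were 0 without normal liver 1, 1 without normal liver 2 or 3 and 4 without WT tumour 19. Id1, a target of the BMP signal that senses iron, measured 7.59, 9.33, 9.57, 10.15 and 8.29 in the mutant tumours and 3.18, 3.43 and 3.48 in the normal livers, at least 31.7-fold higher (limma adjusted p = 0.00056).

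Of 29 tested interferon-stimulated genes, 7 rose and none fell, with a median change of 0.46 (0.35 with undetected genes at the limit). Oas1a, the 2-5A synthetase, measured 7.76, 8.13, 7.18, 8.11 and 8.21 in the mutant tumours and 3.91, 4.32 and 4.55 in the normal livers, where 2 of 3 were above the limit (change 3.62, limma adjusted p = 1.58e-06). Ifi27 rose 2.79-fold and Irf9, a subunit of the interferon-activated ISGF3 complex, 2.38-fold (limma adjusted p = 1.74e-05 and 0.00143). ISGF3 binds repeats of GAAA, and the Oas1a window is shown because it holds such a repeat next to the start: chr5:120907476-120907775 on the - strand (RefSeq, GRCm38.p6, 250 bases before to 50 after the start), printed 5′ to 3′, with the match to GAAANNGAAA, overlapping matches joined, in capitals.
Oas1a: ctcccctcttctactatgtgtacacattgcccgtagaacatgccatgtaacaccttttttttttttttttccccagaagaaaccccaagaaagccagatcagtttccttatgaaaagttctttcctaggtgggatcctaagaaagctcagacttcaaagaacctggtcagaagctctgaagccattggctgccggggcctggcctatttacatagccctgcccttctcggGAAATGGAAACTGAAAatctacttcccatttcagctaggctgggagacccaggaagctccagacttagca
The first base of the run lies at -20 from the start. Of the 5 risers with a window, Oas1a was the 1 that held GAAANNGAAA, which 3.99% of all genes with a window hold; no match in a window says only that these letters are absent there. The counts without 1 array were 6 to 8 risers, and 1 member fell without WT tumour 17, 18 or 22, mutant tumour 27 or antibiotic WT tumour 29 or 30.

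Some markers of neutrophils, plasma cells and macrophages rose in the mutant tumours, and their part in the genes above was not tested. Of 18 tested macrophage and Kupffer cell markers 1 passed, a share below that of all genes: Mpeg1, a pore-forming protein of macrophages, measured 12.09, 12.10, 12.02, 12.35 and 12.04 in the mutant tumours and 9.35, 9.41 and 9.53 in the normal livers (limma adjusted p = 3.82e-06). The mean level of the 18 was 6.58 to 8.62 in the mutant tumours and 5.75 to 7.0 in the normal livers, with a median change of 1.03. In 7 of the 18 every mutant tumour was above every normal liver and in none below, against 20.2% and 18.9% of all genes tested. Leaving out 1 array gave 1 to 6 passing markers, with 2 without mutant tumour 27 or WT tumour 17, 3 without mutant tumour 25 or antibiotic WT tumour 29, 4 without antibiotic WT tumour 30 and 6 without antibiotic WT tumour 28. The defining marker Adgre1 (F4/80), chosen after its values were seen, measured 4.29 to 6.34 in the mutant tumours and 4.54 to 5.32 in the normal livers (limma adjusted p = 0.862). The neutrophil proteins S100a8 and S100a9 were at least 9.48-fold and 5.71-fold higher (limma adjusted p = 0.00127 and 0.00317), highest in mutant tumours 23 and 27 (8.45 and 8.10 for S100a8). With Lcn2 they were the 3 tested neutrophil markers of 12 on the array; the other 9 were below the filter. The mean level of the 3 was 7.86 to 9.94 in the mutant tumours and, below the detection limit, 2.98 to 3.05 in the normal livers. The 3 passed the filter through the tumours, so this gap follows in part from the filter and does not speak for the other 9.

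Igha, the constant region of IgA made by plasma cells, measured 9.26, 11.19, 9.04, 8.37 and 10.96 in the mutant tumours and 3.95, 5.31 and 4.6 in the normal livers, where 2 of 3 were above the limit (limma adjusted p = 0.00671). Jchain, which joins IgA units, was at 6.77, 8.55, 6.27, 6.74 and 8.48 in the mutant tumours and 3.11 to 4.19 in the normal livers, so tumours 24 and 27 were highest for both. The Jchain call (limma adjusted p = 0.0166) ended without normal liver 1 or 3 (0.0529 and 0.0712). Of 13 B and plasma cell markers on the array, 5 were tested and the rest were below the filter. Of the 5, 3 rose, or 1 without normal liver 3. Besides Igha and Jchain the riser was Xbp1. Its call ended without normal liver 3 (limma adjusted p = 0.054) and when probe sets open to cross-hybridisation were left out (limma adjusted p = 0.826). The other 2 did not pass and had no positive change. None of the 16 T and NK cell markers on the array passed the filter on low values, Cd3e, chosen after its values were seen, being at 1.98 to 2.13 in the mutant tumours and 1.96 to 2.18 in the normal livers. H2-Aa, of MHC class II, was the 1 of 4 tested dendritic cell markers to rise (limma adjusted p = 0.0359), and its call ended without normal liver 1, 2 or 3 or mutant tumour 23, 24 or 26 (up to 0.112). The count of 1 became 2 or 3 without mutant tumour 25 or any of 7 WT or antibiotic WT tumours.

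Stromal and vascular markers differed little. Of 20 tested stellate cell and fibroblast markers 2 rose, Sparc and Vim, where 11.7% of all genes tested rose. The median change was 0.37 (0.16 with undetected genes at the limit), and 1 rose without normal liver 1, 2 or 3 or mutant tumour 25 or 26. Sparc, a matrix glycoprotein, measured 9.53, 11.26, 11.08, 10.90 and 9.84 in the mutant tumours and 6.91, 8.01 and 8.32 in the normal livers, a 6.86-fold rise (limma adjusted p = 0.00632). The collagen gene Col1a1 was below the detection limit on every mutant tumour and normal liver array (2.19 to 2.87 and 2.22 to 2.29). Of 19 tested endothelial markers, 1, Rspo3, fell (limma adjusted p = 0.047), a call that ended on leaving out any 1 of 12 arrays, among them every normal liver and mutant tumours 24 to 27 (up to 0.199); the median change was 0.38 (0.26 with undetected genes at the limit). Of 11 tested cholangiocyte and progenitor markers 3 rose, Tspan8, Prom1 and the keratin gene Krt18 (2.59-fold, limma adjusted p = 0.00133), while the bile duct keratin Krt19, chosen after its values were seen, stayed below the detection limit in all mutant tumours (2.30 to 3.02) and normal livers (2.56 to 2.67). Alas2, the haem enzyme of red cell precursors, fell 6.13-fold (limma adjusted p = 0.0133, but 0.0546 without normal liver 1); 1 of 2 tested erythroid markers thus fell, or 2 without WT tumour 17. Of 3 tested adipocyte markers 2 rose, the lipase gene Lpl and the lipid carrier gene Fabp4, which macrophages also express (limma adjusted p = 0.00981 and 0.0334); Lpl lost the call without normal liver 1 (0.0538), and Fabp4 without normal liver 1, 2 or 3 or mutant tumour 24, 25 or 26 (up to 0.101). Cela1 was the 1 tested pancreatic acinar marker and did not pass (limma adjusted p = 0.978).

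**Figure D3:**
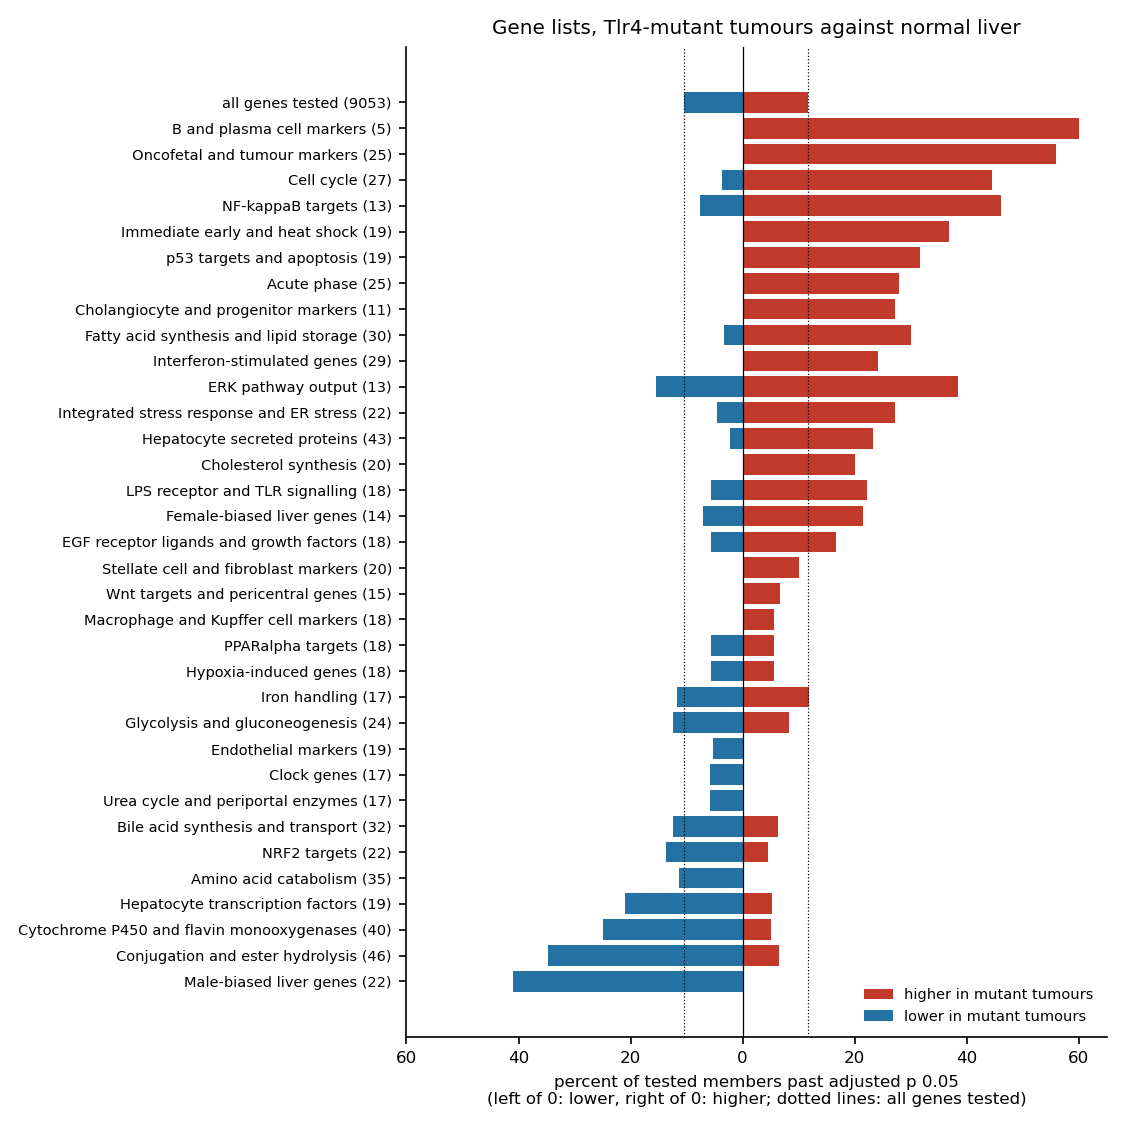
Percent of the tested members of each gene list (horizontal axis) that were higher (red, right of 0) or lower (blue, left of 0) in mutant tumours at an adjusted p under 0.05; the number tested is in brackets after each name. Lists with fewer than 5 tested members are not drawn. The dotted lines mark all 9053 genes tested, 11.7% higher and 10.5% lower; B and plasma cell, oncofetal, NF-kappaB and cell cycle lists reach furthest right and male-biased and conjugation lists furthest left.

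The mutant tumours were also tested directly against the 7 WT tumours. The C3H/HeOuJ normal livers are the reference of both and cancel, so this is a contrast between tumours of different substrains. This test passed for 24 of the 9053 genes (0.265%), 13 higher (0.144%) and 11 lower (0.122%) in the mutant tumours. Of those, 17 (0.188% of the genes tested) also passed against normal liver. The count of 24 was 16 without mutant tumour 25, and 17 without mutant tumour 23, 26 or 27. Of the gene lists, only that of EGF receptor ligands and growth factors had members among the 24: Hbegf, higher than in WT tumours, and, chosen after their values were seen, Pdgfa and Ccn1, lower than in WT tumours (differences of -1.78 and -2.20, limma adjusted p = 0.000275 and 0.0175) and not passing against normal liver. For the oncofetal list the median difference between mutant and WT tumours was -0.20, and for the cell cycle list -0.54. For 28 genes (0.309%) the 5 mutant tumours were all above or all below the 13 C3H/HeOuJ arrays, tumours and livers together. Tumour and substrain cannot be told apart for any of these genes.

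Slc12a4, a potassium-chloride cotransporter, measured 4.97, 4.80, 6.41, 6.49 and 5.82 in the mutant tumours, averaged 2.63 ± 0.31 in the antibiotic WT tumours (SD, n = 3) and 2.31 ± 0.21 in the WT tumours (SD, n = 7), and measured 2.44, 2.32 and 2.29 in the normal livers. It was detected in the mutant tumours and in no other group, 3.39 above the WT tumours (limma adjusted p = 1.17e-06) and at least 3.24-fold above normal liver (4.06e-06). Nme7, a nucleoside diphosphate kinase of cilia and centrosomes, measured 8.17, 8.82, 8.52, 7.61 and 8.76 in the mutant tumours, 5.23 ± 0.68 in the antibiotic WT tumours, 5.63 ± 0.58 in the WT tumours and 5.29, 5.32 and 5.22 in the normal livers. The WT tumours and the normal livers were alike for Nme7 (change 0.35, limma adjusted p = 0.436), while the mutant tumours were 8.58-fold above normal liver (4.01e-05).

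Ppp1r21, a subunit of an endosomal complex, was 3.96-fold above normal liver and differed from WT tumours by 1.98 (limma adjusted p = 1.21e-05 and 4.35e-06), with 9.20 as the value of mutant tumour 26, 7.23 ± 0.21 in the WT tumours (SD, n = 7) and 7.12 to 7.29 in the normal livers. Cystm1, a small membrane protein gene, was 6.53 to 7.14 in the mutant tumours, 4.53 ± 0.17 in the WT tumours and 5.17 to 5.27 in the normal livers. It was the 1 gene of the 17 that WT tumours and mutant tumours changed in opposite directions with both passing: 1.59 above normal liver in the mutant tumours and -0.67 in the WT tumours (limma adjusted p = 1.27e-05 and 0.00411).

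Rbks, ribokinase, measured 2.82, 2.40, 2.85, 3.15 and 3.16 in the mutant tumours, 5.88 ± 0.29 in the antibiotic WT tumours, 5.34 ± 0.34 in the WT tumours and 6.30, 6.25 and 6.40 in the normal livers. It was undetected in every mutant tumour and at least 4.98-fold below normal liver (limma adjusted p = 3.83e-08). Fig4, a phosphoinositide phosphatase, was likewise undetected in the mutant tumours (2.88 to 3.35) and measured 5.22 to 5.66 in the normal livers, with the WT tumours between them at 4.29 ± 0.32. Copz2, a coatomer subunit, was 2.71 to 4.41 in the mutant tumours, 6.20 ± 0.52 in the WT tumours and 6.07 to 6.32 in the normal livers, where WT tumours and normal livers did not pass as different (limma adjusted p = 0.955). Fancl, a ubiquitin ligase of DNA repair, and Vps41, of the lysosomal tethering complex, were 2.12-fold and 2.04-fold below normal liver (limma adjusted p = 0.00497 and 0.000119) and differed from WT tumours by -1.47 and -0.87 (0.000624 and 0.000543). Vps41 did not pass against WT tumours when probe sets open to cross-hybridisation were left out (0.146). Hacd1, a fatty acid elongation dehydratase, fell 3.07-fold against normal liver (limma adjusted p = 0.000181), and its difference of -0.94 from WT tumours (0.0312) was lost on leaving out any 1 of 11 arrays, mutant tumours 24 to 27 among them (up to 0.116). The difference was also lost with the mean of probe sets, centred arrays, or only the 2 groups fitted.

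Uty, Kdm5d and Eif2s3y, which passed both tests, lie on the Y chromosome. Uty, a histone demethylase gene, measured 7.79, 8.16, 7.98, 8.05 and 7.93 in the mutant tumours and 7.17, 6.45 and 6.63 in the normal livers, and averaged 7.07 ± 0.13 in the WT tumours (SD, n = 7). Kdm5d, another histone demethylase, was 1.16 above normal liver and 1.02 above WT tumours, and Eif2s3y, a translation initiation factor subunit, 0.77 and 0.89 (limma adjusted p = 0.000665, 0.00298, 0.000283 and 5.95e-05). For Uty, Kdm5d and Eif2s3y every mutant tumour was above all 13 C3H/HeOuJ arrays. Hccs, the cytochrome c haem lyase gene on the X chromosome, was 2.13-fold above normal liver (limma adjusted p = 0.00139). Xpr1, a phosphate exporter, and Cltb, clathrin light chain B, rose 1.5-fold and 1.48-fold against normal liver (limma adjusted p = 0.0175 and 0.047). Against normal liver the call was lost without normal liver 2 or 3 for Xpr1 (up to 0.0757), and for Cltb on leaving out any 1 of 11 arrays, every normal liver and mutant tumours 23 to 26 among them (up to 0.163). Cltb also lost this call with no filter on low values, quantile normalization, centred arrays, or the robust and trended prior. Against WT tumours Hccs, Xpr1 and Cltb differed by 0.88, 0.71 and 0.83, and lost the call on leaving out mutant tumour 23, 25 or 27, mutant tumour 26 for Hccs and Cltb, or single WT tumours (limma adjusted p up to 0.0724, 0.0949 and 0.0905). The call was also lost with the mean of probe sets for Hccs and Cltb, and with only the 2 groups fitted for Xpr1 and Cltb.

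Hbegf was the 1 listed growth factor to rise against both references. It averaged 7.5 ± 0.17 in the mutant tumours (SD, n = 5), 5.43 ± 1.64 in the antibiotic WT tumours (SD, n = 3), 5.26 ± 0.59 in the WT tumours (SD, n = 7) and 2.39 ± 0.58 in the normal livers (SD, n = 3). By their means the order of the groups was thus mutant tumours, both kinds of WT tumour, then normal liver. Antibiotic WT tumours 28 to 30 measured 3.79, 7.07 and 5.42, against 4.40 to 5.90 in the WT tumours, so tumour 29 was near the lowest mutant tumour (7.23). The mutant tumours exceeded the WT tumours by 2.25 (limma adjusted p = 0.0281), but this call was lost on leaving out any 1 of the mutant tumours, or WT tumour 16, 19 or 21 (0.0523 to 0.0949), while the rise against normal liver was not lost without any 1 array.

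**Figure D4:**
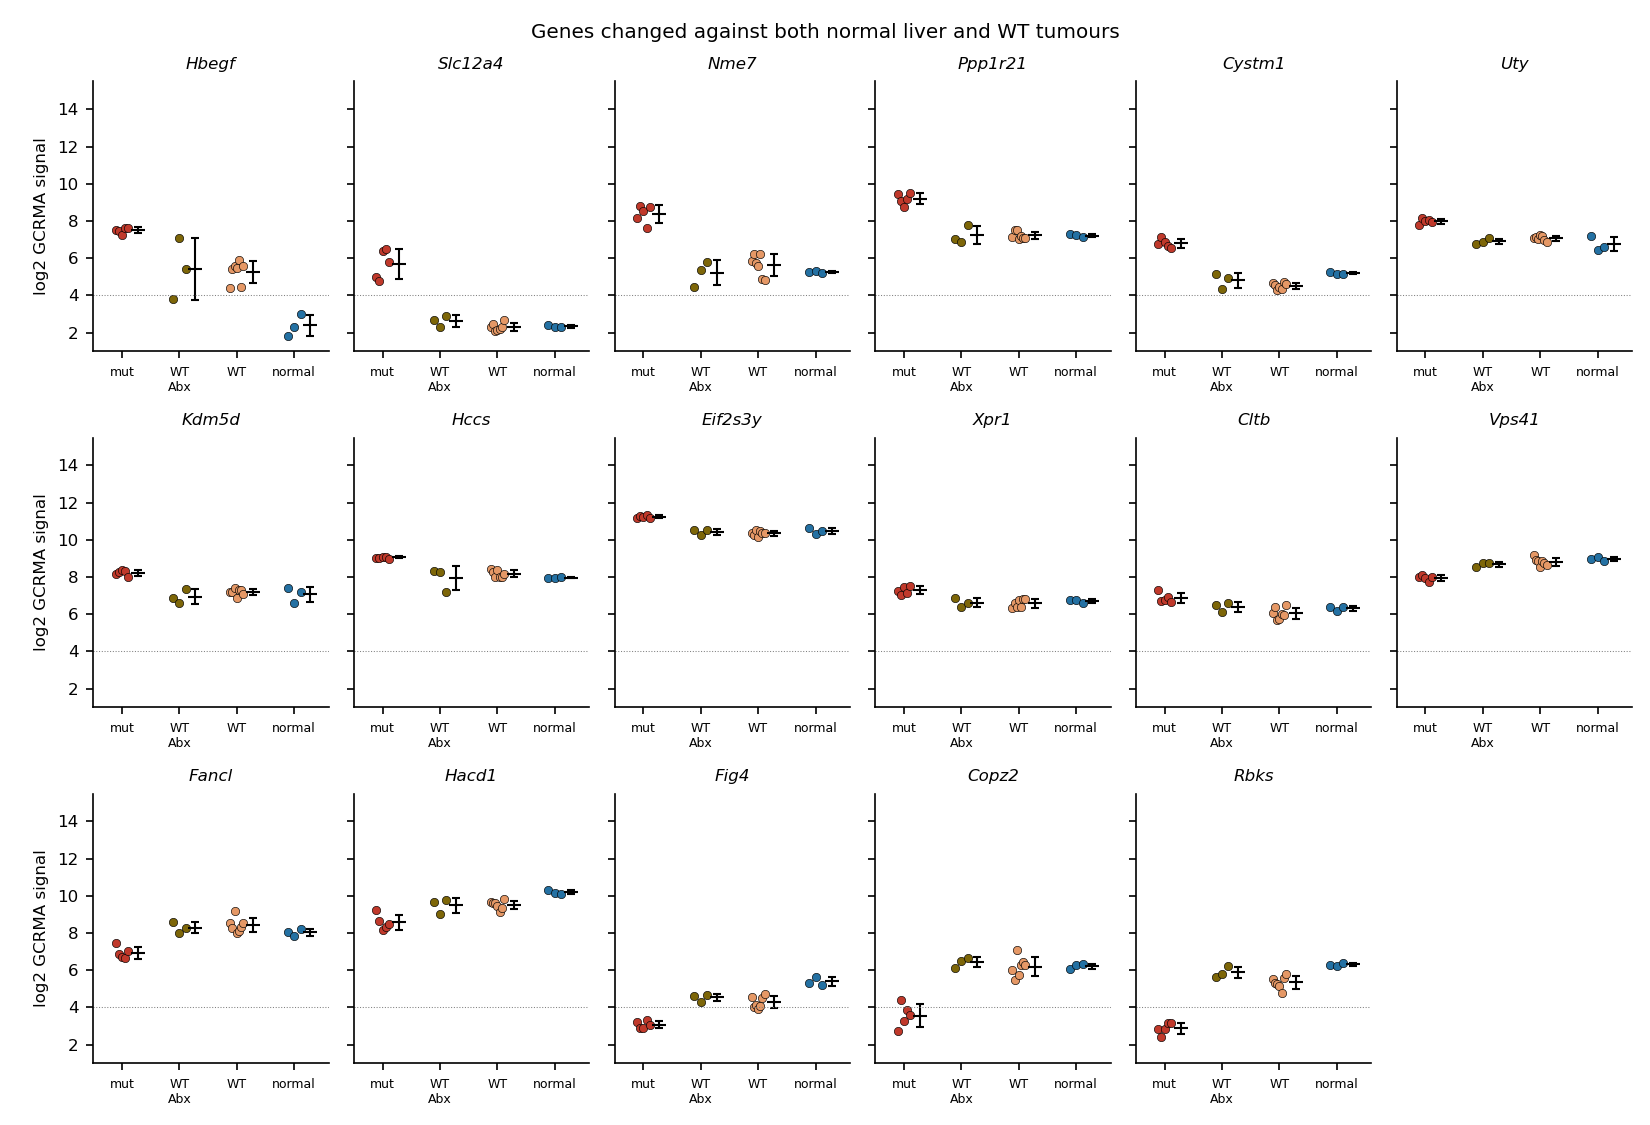
Log2 GCRMA signal (vertical axis) of the 17 genes that passed against both normal liver and WT tumours, in the 5 mutant tumours (red), 3 antibiotic WT tumours (brown), 7 WT tumours (orange) and 3 normal livers (blue). Points are arrays, bars the mean and SD, and the dotted line the detection limit of log2 4. For Slc12a4 the mutant tumours alone are detected, and for Rbks they alone are undetected.

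The 5 mutant tumours differed among themselves more than the normal livers did. The genes with the widest range over them were Orm2, Elovl3, Ddc, Serpina4-ps1 and Cyp4a12a. Orm2, an acute phase glycoprotein, measured 13.15, 5.35, 3.79, 4.10 and 11.07 in mutant tumours 23 to 27 and 5.76, 5.31 and 4.68 in the normal livers, so that 2 tumours were high and the other 3 at or below normal liver. Its change of 2.24 did not pass (limma adjusted p = 0.499). Elovl3, a male-biased fatty acid elongase, measured 10.68, 7.85, 5.08, 2.22 and 5.99 in the mutant tumours, against 9.91, 10.41 and 10.20 in the normal livers (limma adjusted p = 0.102; 0.0281 without tumour 23). Tumour 23 was above normal liver and tumour 26 undetected. Cyp4a12a, a male-specific fatty acid hydroxylase, measured 10.91, 7.76, 8.57, 3.54 and 10.11 in the mutant tumours and 12.03 to 12.35 in the normal livers (limma adjusted p = 0.101). Serpina4-ps1, a pseudogene of a protease inhibitor, ran from 2.12 in tumour 26 to 9.74 in tumour 27, against 9.88 to 10.96 in the normal livers (limma adjusted p = 0.121). Ddc, the aromatic amino acid decarboxylase, measured 10.66, 9.40, 6.61, 2.95 and 7.11 in the mutant tumours and 11.40, 10.47 and 10.79 in the normal livers. It passed (change -3.54, limma adjusted p = 0.0364), but not without normal liver 1, 2 or 3 or mutant tumour 25 or 27 (0.053 to 0.121), and its change was -4.37 without tumour 23 and -2.44 without tumour 26.

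In the cell cycle, urea cycle and pericentral lists, mutant tumours 23 and 27 were nearer to normal liver than tumours 24 to 26. The mean level of the 27 cell cycle genes was 5.09 and 5.44 in tumours 23 and 27, 5.94 to 6.36 in the other mutant tumours and 4.28 to 4.42 in the normal livers. The mean of the 17 urea cycle and periportal genes was 10.74 and 10.95 in tumours 23 and 27, 9.65 to 10.31 in the others and 11.03 to 11.19 in the normal livers. For the 15 Wnt and pericentral genes the means were 8.56 and 8.31 in tumours 23 and 27, 6.91 to 7.57 in the others and 8.55 to 8.66 in the normal livers. The acute phase and neutrophil lists had another order. The acute phase list was at 12.22 and 11.86 in tumours 23 and 27, above both the other mutant tumours (10.44 to 10.67) and the normal livers (10.53 to 10.56). The 3 neutrophil markers, which passed the filter through the tumours, were at 9.94 and 9.55 in tumours 23 and 27. They were at 7.86 to 8.54 in the other mutant tumours, and their mean in the normal livers was below the detection limit (2.98 to 3.05). Glul, the pericentral glutamine synthetase, and Oat, ornithine aminotransferase, chosen after their values were seen, are of the pericentral list: Glul measured 11.61, 8.47, 9.86, 8.69 and 11.07 in the mutant tumours, against 11.80 to 12.02 in the normal livers, and Oat 11.92, 8.91, 9.47, 7.13 and 11.48, against 12.23 to 12.72. Neither passed (limma adjusted p = 0.138 and 0.188). Lists were compared between tumours as a description, with no test.

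Clock genes split the tumours another way. Dbp, an output of the circadian clock that peaks by day, chosen after its values were seen, measured 6.77 and 7.37 in mutant tumours 23 and 24, 12.47 to 12.55 in tumours 25 to 27 and 12.52 to 12.66 in the normal livers. Arntl (Bmal1), the clock activator that runs opposite in phase, chosen likewise, measured 8.23 and 8.33 in tumours 23 and 24, 2.29 to 2.54 in tumours 25 to 27 and 2.82 to 3.34 in the normal livers. Tumours 23 and 24 thus stood apart from the other 6 arrays in both genes. Of 17 tested clock genes, Hlf alone passed, lower in the mutant tumours (limma adjusted p = 0.0439), and its call ended on leaving out any 1 of 10 arrays, every normal liver and mutant tumours 23 to 26 among them (up to 0.117).

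**Figure D5:**
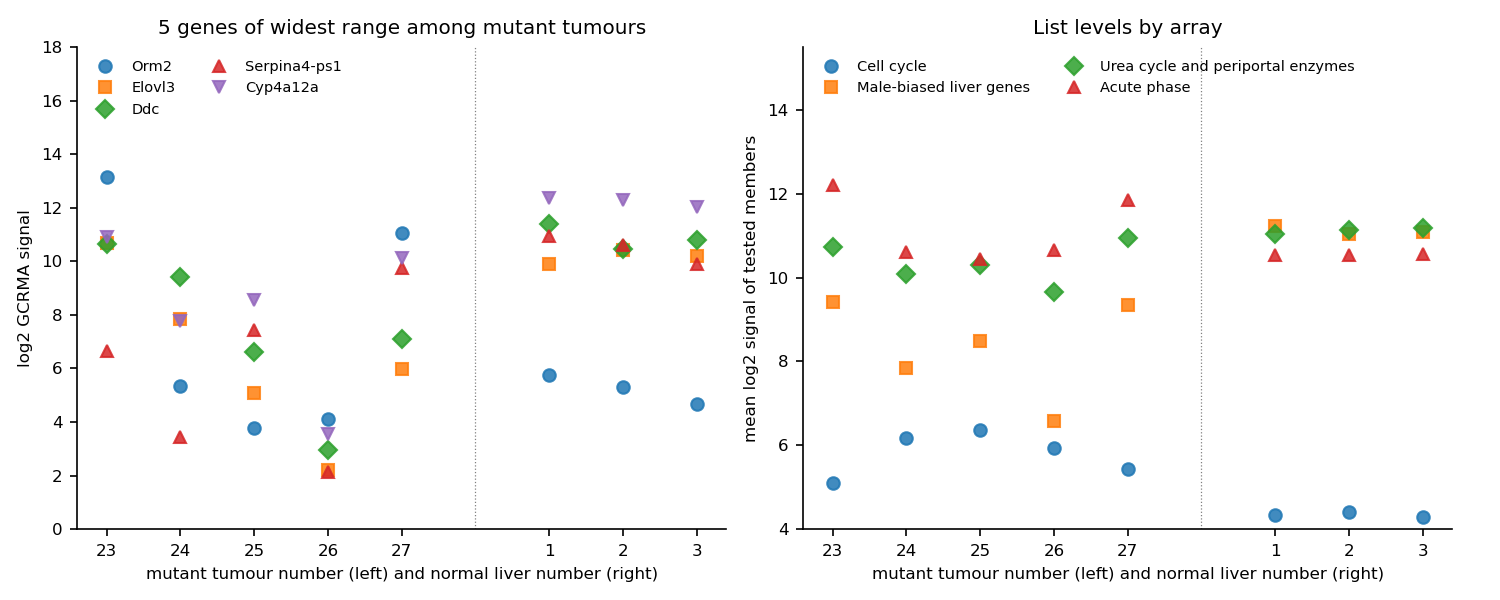
Left, log2 GCRMA signal (vertical axis) of the 5 genes of widest range among the mutant tumours, by array number (horizontal axis, mutant tumours 23 to 27, then normal livers 1 to 3). Right, the mean log2 signal of the tested members of 4 gene lists on the same arrays: in tumours 23 and 27 the cell cycle level is lowest and the male-biased, urea cycle and acute phase levels are highest among the tumours.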

How the data were processed

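Total RNA of dissected tumour nodules and of normal liver was amplified and biotin-labelled for Affymetrix arrays, per the labels' protocols. The deposited values are log2 signals made by the authors with GCRMA, per the submitters' processing notes; its version is not given in the sources used here. GCRMA sets weak probe sets near a floor, so folds against undetected groups are bounds. Probe sets were named from GEO's platform annotation, with symbols checked against RefSeq.

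Of 45101 probe sets, 64 controls were left out, 16663 exceeded log2 4 on at least 3 of the 18 arrays, and 14689 of these carried 1 gene symbol. Where a gene had several of these, the one with the highest mean over the 18 arrays stood for it, which gave 9053 genes, 3586 of them with further kept probe sets. Of 809 genes that passed and had further probe sets, 125 had probe sets of both signs. Of the 1974 kept probe sets without a single symbol, 546 passed against normal liver (272 higher, 274 lower) and are not named.

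All 18 arrays were fitted together in 4 groups with limma 3.58.1 (lmFit, eBayes) in R 4.3.3, with Benjamini-Hochberg adjustment over all genes tested and a threshold of 0.05. Control probe sets were compared by exact permutation tests (scipy 1.17.1). On simulated data of 9053 genes at these group sizes the fit recovered 58% of genes changed 2-fold and 89% of those changed 4-fold, with 12 false calls among 159. The simulation changed a far smaller part of the genes than passed here and gave each gene the same spread in all groups. Its shares therefore need not hold for these data. The labels do not say whether samples are separate animals, so p-values measure the spread between samples, which may be technical in part; the number of arrays limits the precision. Genes named are the 10 largest rises and falls among passing genes whose groups do not overlap (a group below the limit on every array set at it), up to 3 passing members a list and direction with the smallest p, or 2 where none passes, genes that passed both tests, the 5 of widest range among mutant tumours and 12 set genes; others are marked. The comparison, the lists (40, with 971 genes, 695 tested) and the named genes were chosen with earlier results of these data known. Promoter windows were taken from RefSeq (GRCm38.p6); 7410 of the tested genes had one. Alternatives tried were other filters, probe set rules, scalings, priors, array weights, thresholds and leaving out each array.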

Additional observations from a re-analysis of the deposited data

Results flagged for a closer look

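In 2 of the 149 named genes 1 mutant tumour stood apart from the other 4 by a gap over 0.71 of the group's range, a size that chance gives in about 1 of 20 groups. The share of 2 in 149 is below that of 1 in 20. Abcb1a was 6.21 in mutant tumour 23, against 7.58 in the next lowest, and Mpeg1 was 12.35 in mutant tumour 26, against 12.10 in the next highest. All 4 other mutant tumours still exceeded every normal liver in both genes.

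For 17 genes that passed against normal liver the difference between mutant and WT tumours also passed the test (limma, adjusted p under 0.05). Both tumour groups share the C3H/HeOuJ livers as reference, so a difference between substrains and a difference in tumour change cannot be told apart. On the log2 scale the mutant tumours exceeded the WT tumours by 3.39 for Slc12a4, 2.75 for Nme7, 2.27 for Cystm1, 2.25 for Hbegf, 1.98 for Ppp1r21 and 1.02 for Kdm5d. The difference was 0.91 for Uty, 0.89 for Eif2s3y, 0.88 for Hccs, 0.83 for Cltb and 0.71 for Xpr1. It was -2.64 for Copz2, -2.47 for Rbks, -1.47 for Fancl, -1.21 for Fig4, -0.94 for Hacd1 and -0.87 for Vps41.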

How the results depend on the processing

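Leaving out 1 array moved the count of genes that differed between mutant tumours and normal liver from 2015 to between 1051 and 2202 (596 to 1177 higher, 455 to 1025 lower), lowest without a normal liver, and the count against WT tumours from 24 to between 16 and 34 (8 to 21 higher, 7 to 16 lower). Testing all 14689 probe sets gave 3501 calls against normal liver (1823 higher, 1678 lower) and 59 against WT tumours (41 lower), 30.5% of them higher in place of 54.2%. Array weights gave 4684 (2417 and 2267) and 38 (20 lower). At an adjusted p under 0.01 the counts were 833 (493 and 340) and 14 (7 and 7), and at 2-fold or more 925 (566 and 359) and 15 (7 higher). The other filters, probe set rules, scalings and priors, and a fit of the 2 groups alone, kept each total within 1.5 times of the main one. The cause of these shifts was not tested, except that more probe sets and other thresholds change what is counted. The 3' minus 5' difference ranged from -0.95 to -0.79 for Gapdh and from -1.81 to -1.51 for beta-actin when 1 array was left out. Of 140 named genes that passed against normal liver, 49 lost the call under at least 1 alternative, 48 of them when 1 mutant or normal array was left out; no called change of a named gene turned its sign. The balance of calls did turn: 928 higher and 1016 lower after quantile normalization and 999 and 1012 with centred arrays, in place of 1061 and 954, and, against WT tumours, 10 and 13 with the mean of probe sets, in place of 13 and 11. Genes near or below log2 4 have no reliable order. No paired analysis was possible because the groups share no sample numbers in the labels.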
